A study of Mus musculus with 6 samples.

Results

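The NF-kB family was examined in the mouse uterus shortly before embryo attachment, in females with and without epithelial *Gp130*. It was taken here as 10 genes among the 56748 of the deposited tables, and all 10 passed the filter on low counts, which kept 16605 genes. The members were chosen by name from the comparison of the same 6 uteri, in which the values of *Bcl3* were already known, so their differences between the groups are a description and carry no test. *Rela*, *Rel*, *Relb*, *Nfkb1* and *Nfkb2* encode the subunits. *Nfkbia*, *Nfkbib* and *Nfkbie* encode the cytoplasmic inhibitors IkB alpha, beta and epsilon. Among the members, *Bcl3* and *Nfkbiz* encode nuclear IkB proteins, Bcl-3 and IkB zeta.

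NF-kB dimers wait in the cytoplasm, bound by IkB proteins, until a signal from a cytokine or Toll-like receptor activates the IKK kinases. IKK marks IkB for destruction, and the freed dimer enters the nucleus and switches on genes that include its own inhibitors. Bcl-3 works differently, since it sits in the nucleus on homodimers of p50 or p52, the processed products of *Nfkb1* and *Nfkb2*, and can raise or lower transcription there. Gp130, encoded by *Il6st*, is the shared signalling chain of the receptors for LIF and the other interleukin 6 cytokines and acts through STAT3, and *Bcl3* is known in other tissues as a gene induced by interleukin 6 and STAT3.

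Uteri of 3 control and 3 *Gp130* ecKO females were taken on day 4 of pregnancy, at 1600 h, all labelled C57BL/6 (C57BL/6J in the methods of the study) and all sexually mature and mated with a fertile wildtype male. The *Gp130* ecKO females carried *Ltf*-iCre, which is active in the uterine epithelium and in some immune cells, together with *Gp130* floxed on both chromosomes. The labels give the controls as WT, and the methods of the study describe its control females as wildtype or floxed without iCre. Each uterus was from a separate female and was sequenced whole, so stroma, muscle, vessels and blood cells contributed RNA. In such bulk RNA, fewer cells of a type and less RNA per cell cannot be told apart.

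Total expected counts per uterus ranged from 13960748 to 25906443, the lowest in control 3. Between uteri, values of single genes are given mainly as CPM, the expected counts relative to the TMM-scaled library size. TPM, the authors' measure per transcript length, is given between genes, and for sums and ratios of genes also between uteri. *Il6st* itself, the targeted gene, had between 452 and 678 CPM in control uteri against between 349.8 and 388 CPM in *Gp130* ecKO. The groups did not overlap, and the log2 fold change was −0.68 (SE 0.21, with an adjusted p of 0.120 by the quasi-likelihood test of edgeR). The gene total includes reads from undeleted exons and from cells without iCre. On the first dimension of a multidimensional scaling, controls 1 and 3 lay at 2.09 and 2.08, the *Gp130* ecKO uteri between −1.47 and −1.32, and control 2 at 0.03, so control 2 stood between the groups. Summed TPM of 8 epithelial markers was between 1641 and 3088 in the controls and between 4281 and 6201 in *Gp130* ecKO. Of these 8, 4 were apart and higher in CPM (*Krt8*, *Krt19*, *Cdh1* and *Cldn3*), beside 15.7% of all tested genes. *Epcam* and *Foxa2* had log2 fold changes of −0.19 and 0.26. By immunostaining, the study reports higher KRT8 and CDH1 in the epithelium of *Gp130* ecKO. The sum can therefore reflect levels per cell as well as cell number, and these were not told apart. The sum of 7 stromal markers was between 1102 and 1423 in the controls and between 744 and 890.1 in *Gp130* ecKO. In CPM, 4 of these 7 were apart and lower, beside 15.6% of all tested genes. The 5 endothelial markers summed to between 156 and 333 TPM in the controls and between 79.2 and 157 TPM in *Gp130* ecKO. These sums overlapped by little, and 4 of the 5 genes were apart and lower in CPM. The sum of 5 smooth muscle markers varied widely within both groups and overlapped. It was between 301 and 1265 TPM in the controls and between 234 and 1583 TPM in *Gp130* ecKO. The sums for macrophages, lymphocytes and all leukocytes overlapped too. The 6 neutrophil markers summed to between 6.32 and 18.8 TPM in the controls and between 2.28 and 8.88 TPM in *Gp130* ecKO, also overlapping, with *Ngp* at 0 counts throughout, *Camp* at 1 count in all, *S100a8*, *S100a9* and *Retnlg* apart and lower in CPM, and *Ly6g* overlapping with a log2 fold change of 1.08. The part of these shifts in the values below was not tested.

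NF-kB dimers bind DNA at kB sites, and promoters of several family members hold such letters. RefSeq promoter sequences (table on GRCm38.p6, 250 bases before each annotated start, placed on GRCm39 by exact match) were found for 7 members, *Bcl3*, *Nfkb2*, *Rel*, *Rela*, *Nfkbia*, *Nfkbib* and *Nfkbie*. *Nfkb1*, *Relb* and *Nfkbiz* had no entry. A kB-type motif, 3 G bases, any 3 bases and then TTCC, searched on both strands, occurred in 4.65% of the 32851 promoters of the table and in those of 4 of the 7 members. The kB consensus, a looser motif of 10 letters that overlaps it and was chosen after the sequences had been seen, occurred in 7.25% of all promoters and in the same 4 members. A match from each of the 4 genes, 2 inhibitors and 2 subunits, is shown here because the kB letters are what these 4 promoters share. Each is 30 bases, written 5′ to 3′ on the strand of its gene, with the letters of the kB consensus match in capitals (overlapping matches joined).
Nfkbia: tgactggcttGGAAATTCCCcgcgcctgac
Nfkbie: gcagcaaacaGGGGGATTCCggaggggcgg
Nfkb2: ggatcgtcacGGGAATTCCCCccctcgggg
Rel: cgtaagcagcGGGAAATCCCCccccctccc

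The *Nfkbia* stretch is chr12:55539442-55539471 on the minus strand, outside the gene in GENCODE M39, and its match begins 29 bases before the RefSeq start. That of *Nfkbie* is chr17:45866510-45866539 on the plus strand, also outside the gene, with a match that begins 106 bases before the start. In *Nfkb2*, chr19:46293127-46293156 on the plus strand, the match begins 39 bases before the first of 3 RefSeq starts and falls in an exon outside the coding sequence of a GENCODE transcript that starts further upstream. A further match, GGGGCTTTCC, begins 11 bases before that start, and the windows of the second and the third start hold 1 match each. In *Rel*, chr11:23721042-23721071 on the minus strand, the match begins 92 bases before the start, in an exon outside the coding sequence. The window of *Bcl3*, chr7:19556681-19556930 on the minus strand, held neither kB motif nor TTCNNNGAA, the palindromic letters bound by STAT proteins. The STAT-type letters occurred in 7.02% of all promoters and, among the 7 members, in *Nfkb2*, where TTCCCCGAA begins 148 bases before the first start. A match is a description of letters, and windows without one say nothing of more distant sites.

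*Bcl3* was the member that differed most between the groups (ENSMUSG00000053175, GRCm39 chromosome 7, 19541553 to 19557570, minus strand, 9 exons in the canonical transcript). Its expected counts were 1336, 1034 and 820 in controls 1, 2 and 3 against 45, 135 and 102 in *Gp130* ecKO 1, 2 and 3. After scaling these were 54.0, 39.9 and 54.7 CPM in the controls against 2.03, 5.19 and 4.23 CPM in *Gp130* ecKO. Every *Gp130* ecKO uterus was far below every control uterus, and control 2, the library between the groups, was the lowest control. The group means were 49.5 ± 8.37 CPM (SD, n = 3) and 3.82 ± 1.62 CPM (SD, n = 3), 12.9-fold apart, with a log2 fold change of −3.69 (SE 0.37). With each uterus left out in turn, the log2 fold change stayed between −3.97 and −3.39.

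All counts of *Bcl3* were whole to within 0.005, as were those of every member but *Nfkb2*, so there was no sign of *Bcl3* reads divided with another gene. An antisense lncRNA, *Gm16175*, overlaps 14117 bases of the *Bcl3* locus and had a mean of 0.333 counts in the controls and 0 in *Gp130* ecKO. The length RSEM assigned to *Bcl3*, an average over its transcripts weighted by their share, was 1744, 1801 and 1594 bases in the controls and 1675, 1741 and 1736 bases in *Gp130* ecKO. These lengths overlapped, so the remaining *Bcl3* RNA had no shift in mean transcript length beyond the spread of the controls. *Bcl3* was the 1 member of 10 called in the comparison of all genes (FDR under 0.05 and more than 2-fold), where 0.157% of tested genes were called. The call was lost with the replicate block and without control 1, control 3, *Gp130* ecKO 2 or *Gp130* ecKO 3. Because that comparison chose the gene, nothing is read from this count.

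**Figure D1:**
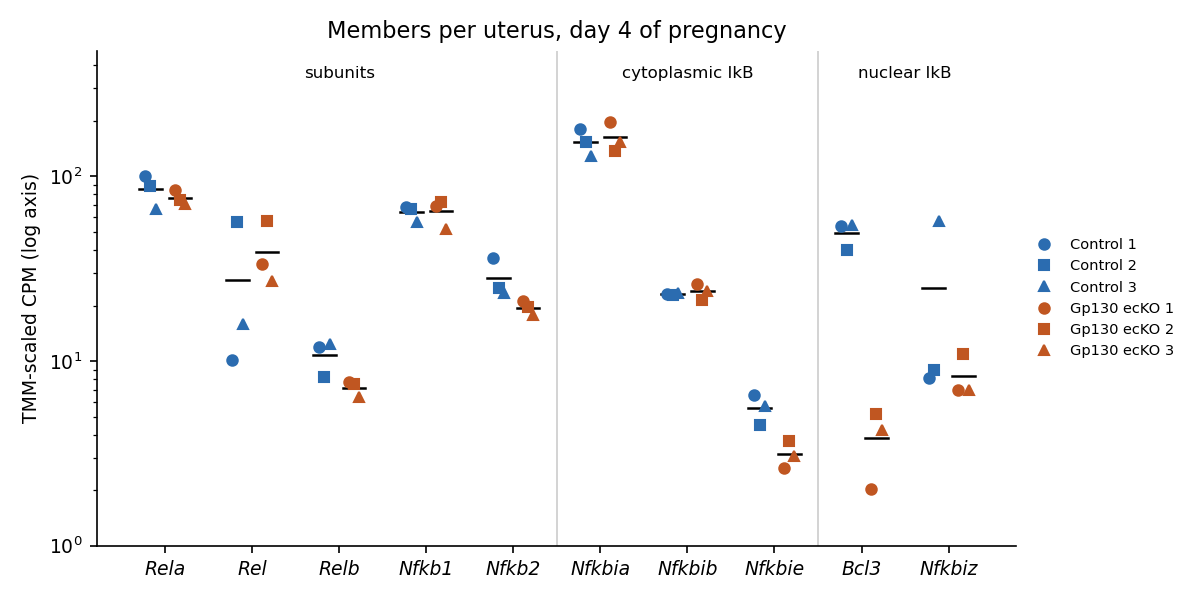
TMM-scaled CPM (log axis) of the 10 members in each uterus, grouped as subunits, cytoplasmic IkB and nuclear IkB, with the group mean as a black line. The *Bcl3* values of *Gp130* ecKO (2.03 to 5.19 CPM) lie below all controls (39.9 to 54.7 CPM). Of the other 9 members 6 overlap between the groups, and over all tested genes 31.3% are apart, so nothing is read from this count.

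The level of *Bcl3* in control uteri was high for this family. Per length, it had 39.9, 29.97 and 49.9 TPM in controls 1, 2 and 3, the third by median among the 10 members. *Nfkbia* stood first with between 148 and 168 TPM and did not overlap with any other member. *Rela* followed with between 43.5 and 63.4 TPM, and the ranges of *Rela* and *Bcl3*, of *Bcl3* and *Nfkb1* (28.95 to 31.5 TPM) and of *Nfkb1* and *Nfkbib* (24.5 to 29.1 TPM) each overlapped. *Nfkb2* (10.2 to 14.8 TPM) lay below *Nfkbib* without overlap and above *Relb* (5.86 to 7.96 TPM) without overlap. *Nfkbiz*, *Nfkbie* and *Rel* had medians of 3.32, 3.26 and 2.97 TPM, and their order could not be told apart.

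In *Gp130* ecKO, *Bcl3* had 1.77, 4.70 and 3.15 TPM and stood eighth of the 10. *Nfkbia* and *Rela* kept the first 2 places, with between 137 and 215 TPM and between 45.5 and 69.4 TPM. *Nfkb1*, *Nfkbib* and *Nfkb2* came next, as they had without *Bcl3* in the controls. The range of *Bcl3* lay below that of *Relb* (4.82 to 6.58 TPM). It overlapped with those of *Rel* (4.52 to 11.7 TPM), *Nfkbiz* (2.40 to 4.67 TPM) and *Nfkbie*. The lowest by median was *Nfkbie* with between 1.56 and 2.33 TPM.

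Set against its partner genes in the same uterus, *Bcl3* had 1.38, 0.950 and 1.70 times the TPM of *Nfkb1* in controls 1, 2 and 3. The ratio was 0.0526, 0.117 and 0.126 in *Gp130* ecKO 1, 2 and 3. Against *Nfkb2* it was between 2.71 and 4.88 in the controls and between 0.184 and 0.492 in *Gp130* ecKO. In the controls, therefore, *Bcl3* RNA was about as abundant as *Nfkb1* RNA or more so, and in *Gp130* ecKO it was a small part of it. *Bcl3* made up 11.6% ± 2.64 (SD, n = 3) of the summed TPM of the 10 members in the controls and 1.04% ± 0.50 (SD, n = 3) in *Gp130* ecKO. The other 9 members together summed to 304 ± 9.49 TPM (SD, n = 3) in the controls and 318 ± 61.6 TPM (SD, n = 3) in *Gp130* ecKO, and these ranges overlapped.

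**Figure D2:**
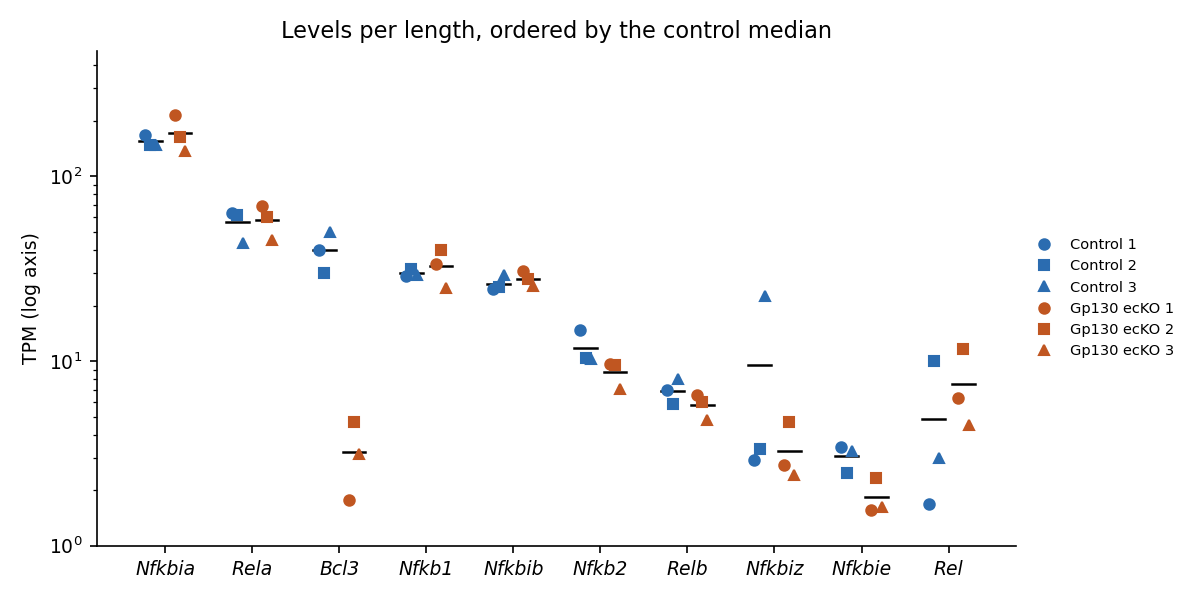
TPM (log axis) of the 10 members in each uterus, ordered by the control median, with the group mean as a black line. *Bcl3* holds the third place in the controls (29.97 to 49.9 TPM) and eighth in *Gp130* ecKO (1.77 to 4.70 TPM), while *Nfkbia* and *Rela* are first and second in both groups.

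Among the subunits, *Rela* and *Nfkb1*, which encode p65 and the p105 precursor of p50 and form the most common NF-kB dimer, overlapped between the groups. *Rela* (ENSMUSG00000024927, chromosome 19, 5687493 to 5698161) had 101, 88.6 and 66.4 CPM in control uteri against 84.7, 74.4 and 71.4 CPM in *Gp130* ecKO, for a log2 fold change of −0.15 (SE 0.19). *Nfkb1* (ENSMUSG00000028163, chromosome 3, 135290264 to 135397742) had 68.7, 66.8 and 56.7 CPM in control uteri against 69.2, 72.9 and 52.0 CPM in *Gp130* ecKO, for a log2 fold change of 0.02 (SE 0.18). Both genes differed between the groups by less than the spread within them. The sign for *Nfkb1* turned negative with upper-quartile scaling (−0.06), without control 3 (−0.07) and without *Gp130* ecKO 1 (−0.03) or *Gp130* ecKO 2 (−0.07), and that for *Rela* turned positive without control 1 (0.01).

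*Nfkb2* and *Relb* encode the p100 precursor of p52 and its usual partner RelB in the alternative NF-kB pathway. Both had a lower mean CPM in *Gp130* ecKO, and neither was called in the comparison of all genes. *Nfkb2* (ENSMUSG00000025225, chromosome 19, 46292759 to 46303812) had 36.4, 24.8 and 23.3 CPM in control uteri against 21.2, 19.5 and 17.8 CPM in *Gp130* ecKO. The groups were next to each other without overlap. The log2 fold change of −0.53 (SE 0.23) became −0.28 without control 1, the uterus with the highest *Nfkb2* CPM. *Nfkb2* is also overlapped on the opposite strand by *Psd* and by the lncRNA *4833438C02Rik*, which had means of 482 and 105 counts in the controls, and whether the authors counted by strand is not given in the sources used here. *Relb* (ENSMUSG00000002983, chromosome 7, 19339017 to 19363425) had 12.0, 8.21 and 12.3 CPM in control uteri against 7.69, 7.499 and 6.38 CPM in *Gp130* ecKO, for a log2 fold change of −0.59 (SE 0.27). On the TPM scale its groups overlapped. The weighted length was between 1895 and 2222 bases in the controls and between 1697 and 1968 bases in *Gp130* ecKO. Its part in that overlap was not tested.

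*Rel*, which encodes c-Rel, a subunit best known from lymphocytes, varied more between uteri than between groups (ENSMUSG00000020275, chromosome 11, 23686847 to 23721264). It had 10.1, 56.7 and 15.9 CPM in controls 1, 2 and 3 against 33.4, 57.3 and 27.0 CPM in *Gp130* ecKO 1, 2 and 3. Control 2 was 5.61 times control 1 and close to the highest *Gp130* ecKO uterus, and the other controls were the lowest of all 6. The log2 fold change was 0.51 (SE 0.62) with all uteri and 1.64 without control 2. The 6 lymphocyte markers summed to 16.4, 22.4 and 27.0 TPM in controls 1, 2 and 3. In *Gp130* ecKO 1, 2 and 3 they summed to 16.9, 28.9 and 8.87 TPM. Like *Rel*, the sum was highest in *Gp130* ecKO 2. Among the controls it was highest in control 3, while *Rel* was highest in control 2. The part of these markers in the values of *Rel* was not tested.

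Of the cytoplasmic inhibitors, *Nfkbia* and *Nfkbib* had overlapping groups. *Nfkbia*, the classic feedback target of NF-kB (ENSMUSG00000021025, chromosome 12, 55535332 to 55539432), had 181, 154 and 128 CPM in control uteri against 198, 137 and 154 CPM in *Gp130* ecKO, for a log2 fold change of 0.08 (SE 0.21). *Nfkbib* (ENSMUSG00000030595, chromosome 7, 28457486 to 28466937) was the steadiest member among the controls, with 23.2, 22.7 and 23.3 CPM in control uteri against 25.996, 21.5 and 24.1 CPM in *Gp130* ecKO, for a log2 fold change of 0.05 (SE 0.18). The sign of both changed when *Gp130* ecKO 1 was left out, to −0.08 and −0.01, that of *Nfkbia* also without control 3 (−0.04), and that of *Nfkbib* also with upper-quartile scaling (−0.02). The ratio of *Nfkbia* to *Rela*, inhibitor to main target in TPM, was between 2.39 and 3.43 in the controls and between 2.73 and 3.09 in *Gp130* ecKO.

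*Nfkbie* was the cytoplasmic inhibitor with groups apart (ENSMUSG00000023947, chromosome 17, 45866585 to 45874661), and it was not called in the comparison of all genes. It had 6.55, 4.51 and 5.73 CPM in control uteri against 2.62, 3.69 and 3.07 CPM in *Gp130* ecKO, from between 58 and 162 counts per uterus. The groups did not overlap in CPM or in TPM, and the log2 fold change was −0.84 (SE 0.31), from −0.97 to −0.67 with each uterus left out in turn. Together with *Bcl3*, *Nfkb2* and *Relb*, it made 4 of 10 members with groups apart in CPM, all lower in *Gp130* ecKO. Over all tested genes, 31.3% were apart in either direction and 15.6% were apart and lower, and since the contrast chose the members nothing is read from the difference.

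*Nfkbiz*, the other nuclear IkB among the members and a target of Toll-like and interleukin 1 receptors, was set by a single library (ENSMUSG00000035356, chromosome 16, 55631738 to 55659262). It had 8.05, 8.95 and 57.2 CPM in controls 1, 2 and 3 against 6.96, 11.0 and 6.96 CPM in *Gp130* ecKO 1, 2 and 3. Control 3, the library with the fewest reads, was 7.11 times control 1, and the other 5 uteri were close together. The log2 fold change of −1.56 (SE 0.76) became −0.04 without control 3. *Bcl3* was 93.2%, 90.0% and 69.0% of the summed TPM of both nuclear IkB members in controls 1, 2 and 3. In *Gp130* ecKO 1, 2 and 3 it was 39.2%, 50.2% and 56.8%.

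**Figure D3:**
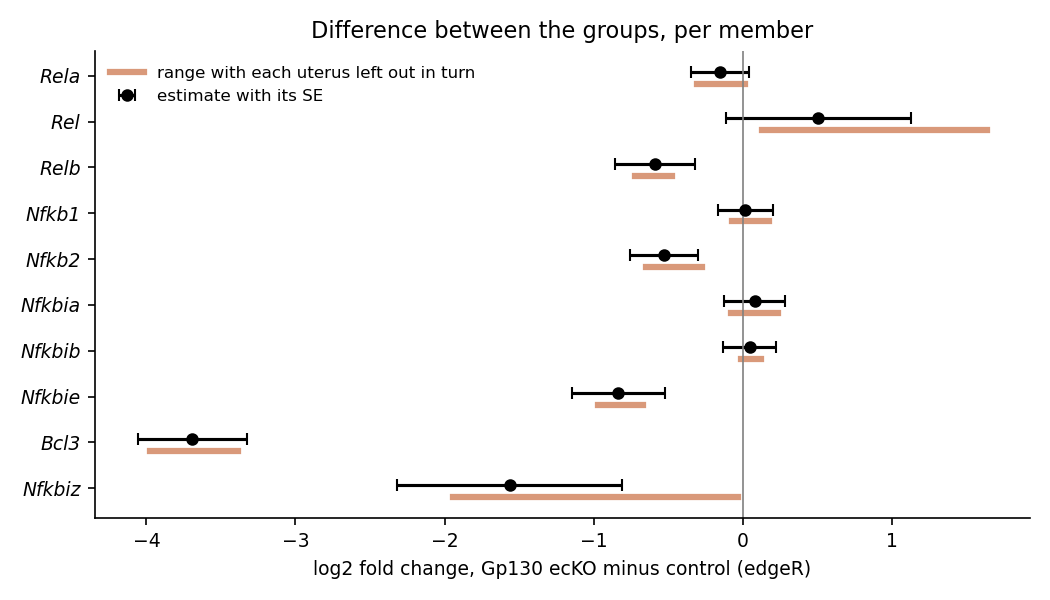
Log2 fold change of each member, *Gp130* ecKO minus control, from edgeR (black points, bars are the SE) and its range with each uterus left out in turn (orange). *Bcl3* stays between −3.97 and −3.39, and the ranges of *Rel* (0.13 to 1.64) and *Nfkbiz* (−1.95 to −0.04) are wide because of control 2 and control 3.

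The genes most like *Bcl3* over the 6 uteri were found by the root mean square difference of centred log2 CPM, among 14762 other tested genes with a mean of at least 1 CPM. They were *B930092H01Rik* (difference 0.54), *Sox11* (0.59), *Gm2446* (0.62), *Socs3* (0.62) and *Usp50* (0.65). *Socs3*, the feedback inhibitor of Gp130 and STAT3 signalling, had 47.4, 29.5 and 67.2 CPM in control uteri against 5.11, 10.8 and 6.92 CPM in *Gp130* ecKO. *Sox11*, a transcription factor gene of embryonic tissues, had between 1.04 and 3.88 CPM in control uteri against between 0.136 and 0.249 CPM in *Gp130* ecKO. *Usp50*, which encodes a protein of the deubiquitinase family, had between 7.21 and 28.2 CPM in control uteri against between 1.67 and 2.19 CPM in *Gp130* ecKO. The likeness follows mainly from the gap between the groups, with control 2 the lowest control for *Socs3*, *Sox11*, *Usp50* and *B930092H01Rik* as for *Bcl3*, and control 1 the lowest for *Gm2446*.

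*Rel* and *Nfkbiz* had other neighbours by the same measure, which was applied to them after their values had been seen. Nearest to *Rel* were *Lrp2* (0.21), *Gstm1* (0.22), *Entrep1* (0.22), *Gstm2-ps1* (0.25) and *Clmn* (0.26), and *Lrp2*, a large endocytic receptor of epithelia, had 285, 1244 and 311 CPM in controls 1, 2 and 3 against 651, 1400 and 733 CPM in *Gp130* ecKO 1, 2 and 3. *Myd88*, the adaptor of Toll-like and interleukin 1 receptors, ranked 27th, with 144, 575 and 157 CPM in control uteri against 219, 483 and 368 CPM in *Gp130* ecKO. Control 2 was the highest control for *Rel*, *Lrp2* and *Myd88*, near *Gp130* ecKO 2 and above *Gp130* ecKO 1 and 3 for *Rel* and *Lrp2*, and above all *Gp130* ecKO uteri for *Myd88*. Nearest to *Nfkbiz* were *Ankrd16* (0.17), *Nipal1* (0.19), *Dxz4* (0.20), *Rian* (0.20) and *Ankrd23* (0.21), all highest in control 3. *Rian* and *Dxz4* are long noncoding RNA genes, and *Rian* had 9.63, 7.83 and 56.9 CPM in control uteri against between 5.24 and 9.499 CPM in *Gp130* ecKO.

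**Figure D4:**
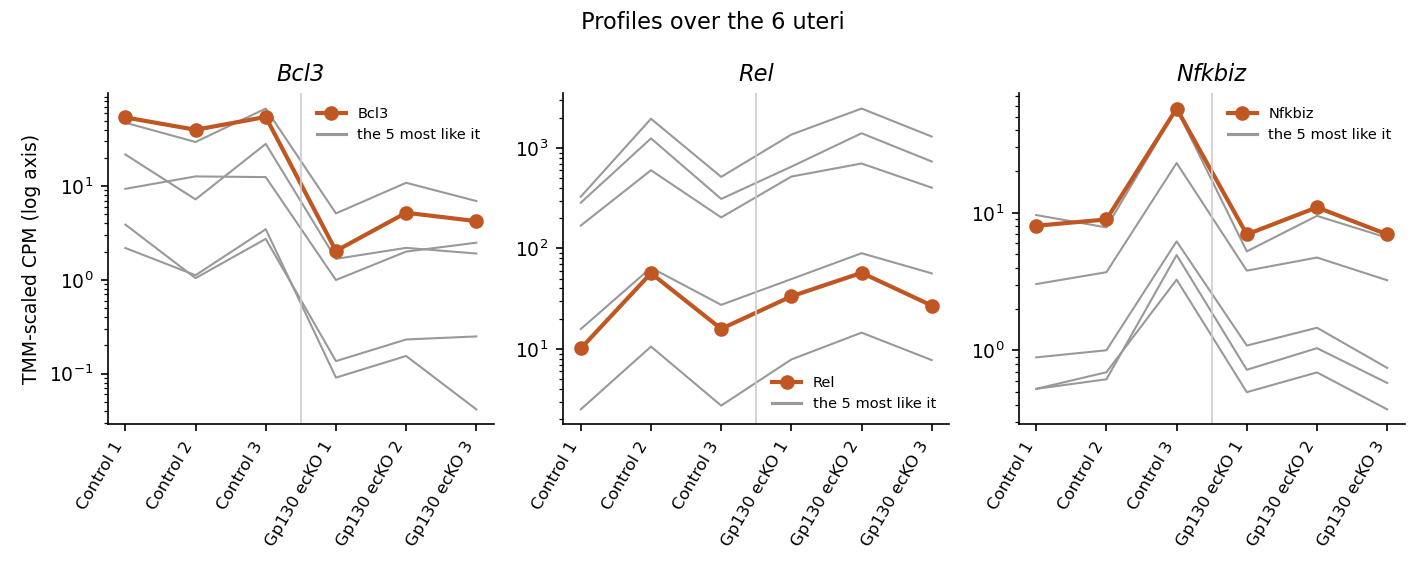
TMM-scaled CPM (log axis) over the 6 uteri of *Bcl3*, *Rel* and *Nfkbiz* (orange, points) and of the 5 genes most like each (grey). *Bcl3* steps down between the groups, *Rel* peaks in control 2 (56.7 CPM) and *Gp130* ecKO 2 (57.3 CPM), and *Nfkbiz* peaks in control 3 (57.2 CPM).

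Other genes of the pathway were taken from 6 lists by role, 103 genes of which 91 were tested. In the comparison of all genes, edgeR's quasi-likelihood test called 0 of the 91, and 21 had an unadjusted p below 0.05, 10 higher and 11 lower in *Gp130* ecKO. Over all tested genes 25.0% had such a p. With the same thresholds the edgeR exact test and the likelihood ratio test each called 7 of the 91 and DESeq2 called 9, against 7.54%, 7.93% and 9.31% of all tested genes. The 7 genes were *F3* and *Ier3*, higher in *Gp130* ecKO, and *Tnfrsf12a*, *Il33*, *Plau*, *Csf1* and *Cxcl5*, lower, and DESeq2 added *Tlr1*, higher, and *Tnfsf13b*, lower. Without control 2 the quasi-likelihood test called 5 of 92, against 5.23% of all genes, namely *F3* and *Traf1*, higher, and *Tnfrsf12a*, *Il1a* and *Cxcl5*, lower. *Il1a*, at 0 counts in control 2 and at most 1 in any *Gp130* ecKO uterus, did not pass the filter with all uteri, and control 2 was the control without its counts, so its call without control 2 is fixed by that omission. Groups were apart in CPM for 14 genes higher in *Gp130* ecKO and 12 lower, and over all tested genes 15.7% were apart and higher.

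The kinases and adaptors that carry the signal had medians near 0 over genes that went both ways. Of 15 genes of the IKK complex, the kinases upstream of it and their TAB partners, including *Chuk* and *Ikbkb*, the catalytic IKK subunits, the median log2 fold change was 0.02, where that of all tested genes was −0.05, and it was −0.05 with upper-quartile scaling. *Map3k14*, which encodes NIK, the kinase of the alternative pathway, had the lowest log2 fold change of these 15, −1.30 (SE 0.57, adjusted p = 0.208 from edgeR), with 5.66, 3.70 and 13.002 CPM in control uteri against 3.57, 3.92 and 1.45 CPM in *Gp130* ecKO, which overlap, and its log2 fold change was −0.65 without control 3. *Ikbkg*, which encodes the regulatory IKK subunit NEMO, had 50.4, 61.9 and 44.4 CPM in control uteri against 93.4, 75.8 and 81.4 CPM in *Gp130* ecKO, for a log2 fold change of 0.68 (SE 0.18, with an adjusted p of 0.102 by the quasi-likelihood test of edgeR). *Tbk1*, a kinase related to IKK, was apart by little, with 29.8 to 32.6 CPM in control uteri against 33.3 to 37.5 CPM in *Gp130* ecKO. Of 16 adaptors and ubiquitin ligases the median was 0.05. *Traf6*, the ubiquitin ligase of the Toll-like and interleukin 1 receptor route, had 30.3, 32.3 and 32.9 CPM in control uteri against 48.6, 45.7 and 38.6 CPM in *Gp130* ecKO, and *Btrc*, which recognises phosphorylated IkB, had 14.1 to 17.5 CPM in control uteri against 18.9 to 26.5 CPM in *Gp130* ecKO. Their adjusted p values from edgeR were 0.144 and 0.220.

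The receptors and ligands differed more from gene to gene. *Tnfrsf1a*, the main receptor of TNF, had 148, 111 and 101 CPM in control uteri against 56.7, 65.1 and 60.7 CPM in *Gp130* ecKO, for a log2 fold change of −0.98 (SE 0.19, adjusted p = 0.0677 from edgeR, between 0.00127 and 0.226 over its alternatives). *Tnfrsf12a*, the receptor of TWEAK, had 9.99, 3.39 and 24.1 CPM in control uteri against 2.89, 2.73 and 1.86 CPM in *Gp130* ecKO, for a log2 fold change of −2.31 (SE 0.67, adjusted p = 0.112 from edgeR, between 0.00684 and 0.281 over its alternatives), which was −1.42 without control 3. TWEAK itself, encoded by *Tnfsf12*, had 12.0 to 17.9 CPM in control uteri against 7.91 to 10.6 CPM in *Gp130* ecKO, adjusted p = 0.158 from edgeR. The Toll-like receptor genes *Tlr1* (3.60 to 8.37 CPM in control uteri against 10.9 to 16.5 CPM in *Gp130* ecKO) and *Tlr3* (19.2 to 23.8 and 28.4 to 36.5 CPM) were apart in the opposite direction, with adjusted p values of 0.119 and 0.135 from edgeR. The median log2 fold change of the 15 receptors tested was 0.15, and it was −0.12 without *Gp130* ecKO 1 and −0.01 without control 1.

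Of 12 ligand genes only 6 had enough counts to be tested, and *Tnf*, *Lta*, *Tnfsf11*, *Tnfsf14*, *Il1a* and *Cd40lg* did not. The median of those 6 was −0.996, with 1 higher and 5 lower in *Gp130* ecKO. *Il33*, an interleukin 1 family cytokine stored in the nucleus of epithelial and endothelial cells, had 10.6, 4.24 and 5.80 CPM in control uteri against 2.76, 2.27 and 2.57 CPM in *Gp130* ecKO, and *Tnfsf13b*, which encodes the B cell factor BAFF, had 4.09, 4.05 and 5.93 CPM in control uteri against 1.27, 2.46 and 1.95 CPM in *Gp130* ecKO. Their log2 fold changes were −1.45 (SE 0.41) and −1.29 (SE 0.38), with adjusted p values of 0.108 and 0.112 from edgeR. Summed stromal markers and 4 of the 5 endothelial markers were lower in the same uteri, and summed epithelial markers were higher. The part of these markers in the values of *Il33* and *Tnfsf13b* was not tested.

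Among 13 tested feedback inhibitors and further IkB-related genes the median was 0.16. *Cyld* and *Otud7b*, deubiquitinases that restrain the pathway, were higher in every *Gp130* ecKO uterus than in any control. *Cyld* had 39.9, 49.3 and 33.5 CPM in control uteri against 81.1, 71.2 and 57.0 CPM in *Gp130* ecKO, and *Otud7b* had 66.3, 87.1 and 59.9 CPM in control uteri against 122, 118 and 112 CPM in *Gp130* ecKO. Their log2 fold changes of 0.77 (SE 0.21) and 0.72 (SE 0.18) had adjusted p values of 0.104 and 0.0937 from edgeR. *Tollip* was apart and higher (59.9 to 90.9 CPM in control uteri against 101 to 103 CPM in *Gp130* ecKO), *Tnip2* apart and lower (16.8 to 19.2 and 13.2 to 14.1 CPM), and *Tnfaip3*, the A20 gene, overlapped (4.40 to 6.17 and 5.26 to 12.1 CPM).

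Known targets of NF-kB went in both directions. Of 26 tested targets, 8 were higher and 18 lower in *Gp130* ecKO, with a median log2 fold change of −0.68, which was −0.20 without control 1 and −0.38 without *Gp130* ecKO 1. The groups were apart for 5 higher and 4 lower targets, beside 15.7% and 15.6% of all tested genes. *F3*, the tissue factor gene, had 116, 115 and 60.8 CPM in control uteri against 327, 245 and 281 CPM in *Gp130* ecKO, for a log2 fold change of 1.55 (SE 0.28, adjusted p = 0.0635 from edgeR, between 6.92e-05 and 0.1898 over its alternatives). *Ier3*, an immediate early stress gene, had 86.0, 49.4 and 53.0 CPM in control uteri against 207, 100.3 and 171 CPM in *Gp130* ecKO, for a log2 fold change of 1.34 (SE 0.32, adjusted p = 0.0897 from edgeR, between 0.005 and 0.259 over its alternatives). Of 8 epithelial markers, 4 were apart and higher in the same uteri, among them *Krt19*. This marker had 86.0, 382 and 109 CPM in control uteri against between 744 and 1066 CPM in *Gp130* ecKO. The part of the epithelial markers in the values of *F3* and *Ier3* was not tested.

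In the opposite direction, *Plau*, the urokinase gene, had 12.3, 9.29 and 7.20 CPM in control uteri against 1.94, 4.499 and 3.98 CPM in *Gp130* ecKO, for a log2 fold change of −1.47 (SE 0.39, adjusted p = 0.102 from edgeR). *Csf1*, the macrophage growth factor gene, had 34.0, 11.8 and 13.7 CPM in control uteri against 7.46, 7.35 and 7.88 CPM in *Gp130* ecKO, for a log2 fold change of −1.39 (SE 0.42, adjusted p = 0.117 from edgeR), which was −0.72 without control 1. The neutrophil chemokine gene *Cxcl5* had 64, 19 and 35 counts in controls 1, 2 and 3 against 0 in all 3 *Gp130* ecKO uteri. Against a floor of 3 counts in each library it was at least 15.1-fold lower. *Cxcl5* passed the filter on low counts only through the controls, and it was singled out after its values had been seen. It was called by the exact test, the likelihood ratio test and DESeq2, and by the quasi-likelihood test without control 2. Nothing is read from these calls. The neutrophil markers *S100a8*, *S100a9* and *Retnlg* were lower in the same uteri and *Ly6g* was not (0.267 to 1.58 CPM in the controls, 0.543 to 2.61 CPM in *Gp130* ecKO), and their part in the values of *Cxcl5* was not tested. *Icam1* and *Vcam1*, adhesion molecule genes expressed in vessels, overlapped between the groups (13.2 to 28.8 and 5.97 to 16.2 CPM for *Icam1*), as did *Ptgs2*, which had 12.8, 5.51 and 103 CPM in control uteri against 22.3, 32.9 and 18.9 CPM in *Gp130* ecKO and, like *Nfkbiz*, was highest in control 3. The log2 fold change of *Ptgs2* was −0.71 with all uteri and 1.43 without control 3.

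**Figure D5:**
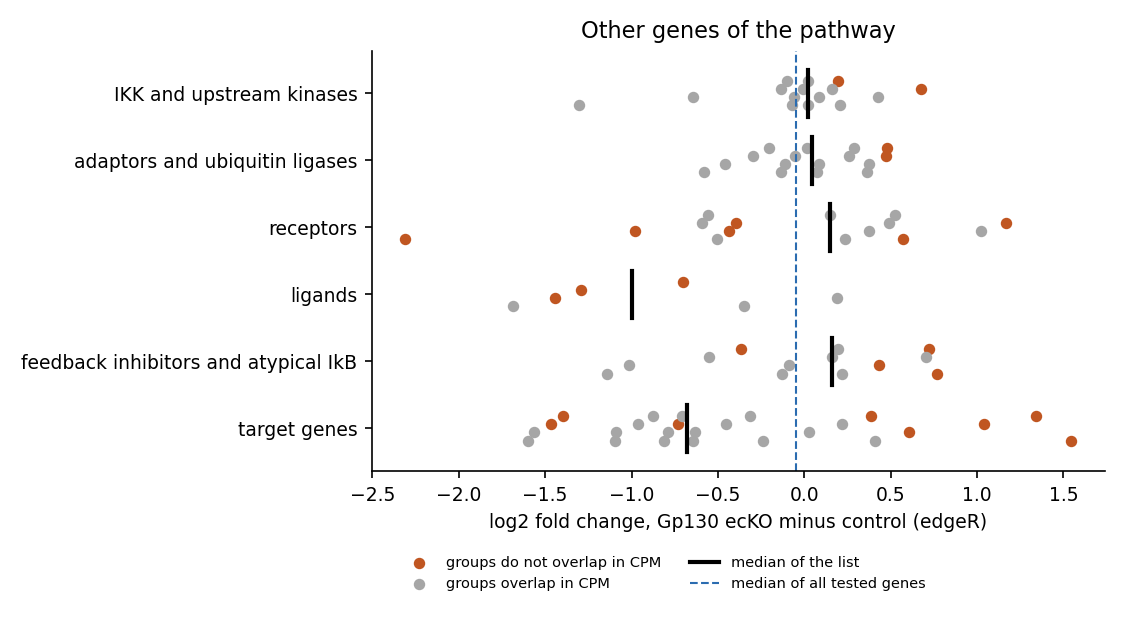
Log2 fold change, *Gp130* ecKO minus control, of the tested genes of 6 pathway lists, with the list median (black line) and the median of all tested genes (dashed, −0.05). Orange marks genes with groups apart in CPM, and *Cxcl5*, at 0 counts in *Gp130* ecKO, is left out of the points. The list medians run from −0.996 (ligands) to 0.16 (feedback inhibitors), and that of the targets (−0.68) is −0.20 without control 1.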

How the data were processed

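RNA from 6 whole uteri was sequenced by the authors as strand-specific poly(A) libraries. They trimmed reads with fastp 0.23.2, removed ribosomal RNA with SortMeRNA, mapped to GRCm39 with STAR 2.7.10a and quantified genes with RSEM 1.3.3. The annotation version and strand setting are not given in the sources used here. The authors deposited expected counts, which are not normalized. They also deposited TPM, scaled for length and depth, and FPKM, not used here. TPM served for levels between genes and for sums and ratios of genes, also between uteri. For some members it was used beside CPM to describe the overlap of groups.

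Expected counts were rounded, filtered with filterByExpr (minimum count 10), scaled by TMM and compared in edgeR 4.0.16 under R 4.3.3 with the quasi-likelihood test, with Benjamini-Hochberg adjustment over 16605 genes and calls at FDR under 0.05 and over 2-fold. The SE was taken as the absolute log2 fold change over the root of the F statistic. The exact and likelihood ratio tests of edgeR, DESeq2 1.42.0, other scalings, no filter, unrounded counts, a replicate block and each uterus left out were alternatives. Symbols and coordinates came from GENCODE M39, which holds 56017 of the 56748 identifiers. The fit was tested on simulated data. No pair of libraries was a duplicate, and p-values measure the spread between 3 females a group.

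The members and lists were chosen with earlier results of these data known. Genes named are the members, *Il6st*, per list those called and up to 4 with the largest change among genes with a mean of at least 1 CPM and groups apart, and the 5 genes most like *Bcl3*. Other genes named were chosen after their values were seen.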

Additional observations from a re-analysis of the deposited data

How the results depend on the processing

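The log2 fold change of *Bcl3* moved by less than the spread between replicates under all 15 alternatives. The number of members called was 1 with all uteri and 0 with the replicate block, and 0 to 1 when single uteri were left out, being 0 without control 1, without control 3, without *Gp130* ecKO 2 and without *Gp130* ecKO 3. The number of all genes called was 26, and 7 with the legacy setting of the quasi-likelihood test, 105 without a filter on low counts, 1252 with the exact test, 1317 with the likelihood ratio test and 1546 with DESeq2. Leaving out single uteri gave 1 to 897, the most without control 2. The number of pathway genes called was 0, and 7, 7 and 9 with the exact test, the likelihood ratio test and DESeq2, and 0 to 5 when single uteri were left out (5 without control 2). With the replicate block 6 genes were called in all. The replicate numbers are not a pairing, since the correlations of deviations between same-numbered uteri were 0.10, 0.06 and −0.19. Of the other members, *Rel* moved without control 2 and *Nfkbiz* without control 3. The median of the tested ligands ranged from −1.37, without *Gp130* ecKO 2 (7 genes tested), to −0.50 with no filter (12 genes tested), where the 6 genes tested with all uteri gave −1.07 and −0.96. The median of the targets shrank to −0.20 without control 1 and −0.38 without *Gp130* ecKO 1, that of the IKK and upstream kinase list was between −0.05 and 0.10 over the alternatives, that of the receptors turned to −0.12 without *Gp130* ecKO 1 and that of the feedback inhibitors to −0.07 without *Gp130* ecKO 2. Under both ligand settings, ligand genes outside those 6 entered the median. The cause of the other moves was not tested. Upper-quartile scaling shifted the median of all genes from −0.05 to −0.11. Genes under about 5 CPM, such as *Nfkbie* and *Il33* in *Gp130* ecKO (58 to 96 and 59 to 62 counts), rest on few counts. At equal CPM, control 3 has the fewest counts.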
